A study of Mus musculus with 3 samples.

Results

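The p38 kinases and their activators were examined in whole mouse lung after deletion of Lin28a and Lin28b. The set was given as 7 genes, namely the p38 kinases Mapk11, Mapk12, Mapk13 and Mapk14 and the activating kinases Map2k3, Map2k4 and Map2k6, and its members were found by matching the RefSeq identifiers of the deposited table to these symbols. All 7 had a row, with 10 transcripts among the 16383 of the table, because Mapk14 had 4. Values above 0 were listed for 6 of the 7 genes. The set was proposed because Mapk12 and Map2k6 were among the genes lying furthest below wild type in these libraries, so the differences of the 7 genes between the genotypes are given as a description, without a test.

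There were 2 double-knockout libraries, DKO 1 and DKO 2, and 1 wild-type library, WT, from whole lung of C57BL/6J/mixed background. In the DKO lungs both Lin28 genes carried loxP sites around exon 2, and recombination was induced with tamoxifen through NKX2.1creERT, a Cre active in the lung epithelium. Cells other than epithelium therefore keep both genes in DKO lung and are part of each library. Age, sex and whether each DKO library stands for its own animal are not in the labels, so p-values measure only how far these libraries differ, which may be technical. Values were RPKM, that is, reads per kilobase of transcript, scaled to the reads of the library. Levels of different genes can be compared per length only where reads and lengths were well estimated, and the lengths used are not stated. Some values were very low: Gapdh, in the higher of its transcripts, was listed at 0.115 RPKM in DKO 1, 0.185 in DKO 2 and 0.0144 in WT. Orders, sums and shares across genes below carry this limit.

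The p38 kinases are stress-activated members of the mitogen-activated protein (MAP) kinase family. Stress and inflammatory signals reach them through a chain in which a MAP kinase kinase kinase phosphorylates a MAP kinase kinase, which then phosphorylates a threonine and a tyrosine in the activation loop of p38. Map2k3 (MKK3) and Map2k6 (MKK6) are the dedicated p38 activators, and Map2k4 (MKK4) serves mainly the JNK kinases but can also act on p38. Mapk14 encodes p38-alpha, the widely expressed form, Mapk11 p38-beta, Mapk12 p38-gamma, which is known for its abundance in skeletal muscle, and Mapk13 p38-delta.

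The aligned coding sequences show how far the members have diverged, and the activation segments show what each tier of the chain acts on. Each line is coding sequence 5′ to 3′ from the GENCODE transcript (GRCm38) matched to the RefSeq identifier. In the p38 genes the capitals mark the threonine, glycine and tyrosine codons that the activators phosphorylate at the first and last residue.
Mapk12: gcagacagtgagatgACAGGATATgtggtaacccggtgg
Mapk13: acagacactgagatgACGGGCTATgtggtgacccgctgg
Mapk11: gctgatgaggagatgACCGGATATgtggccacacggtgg
Mapk14: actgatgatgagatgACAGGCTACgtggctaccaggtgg
In the activators the capitals mark the codons from the serine to the threonine that the upstream kinases phosphorylate.
Map2k6: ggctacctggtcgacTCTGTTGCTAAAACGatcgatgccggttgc
Map2k3: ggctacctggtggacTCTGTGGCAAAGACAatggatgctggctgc
Map2k4: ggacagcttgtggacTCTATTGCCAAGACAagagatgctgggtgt
The p38 segments of 39 bases differed from one another at 6 bases (Mapk12 and Mapk13) to 12 bases (Mapk11 and Mapk13). Over the aligned coding sequence Mapk12 was 73.4% identical to Mapk13 and 68.7% to Mapk11, and Map2k6 was 73.7% identical to Map2k3. The longest run shared by a pair of transcripts was 23 bases, between Map2k3 and Map2k6, and among the p38 pairs it was 20 bases.

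The 4 p38 genes stand in 2 neighbouring pairs. On GRCm38, Mapk12 (chromosome 15, 89130584 to 89140703) and Mapk11 (chromosome 15, 89142486 to 89149628) lie on the minus strand with 1782 bases between them. Mapk14 (chromosome 17, 28691329 to 28748406) and Mapk13 (chromosome 17, 28769297 to 28780233) lie on the plus strand with 20890 bases between them. The activators are spread along chromosome 11, with Map2k3 at 60932033 to 60952811, Map2k4 at 65688243 to 65788297 and Map2k6 at 110399122 to 110525522. No annotated gene overlapped Mapk11, Mapk12, Mapk13, Map2k3 or Map2k6, while Map2k4 contains Mir744 and Mapk14 contains AC170998.1, both on the same strand as the host.

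In general terms the libraries differed in more than genotype. Lin28b, the deleted gene that had a row, was low, with 0.187 RPKM in DKO 1 and 0.590 in DKO 2, against 0.449 in WT, so the library labelled DKO 2 was not below WT for it. This value is for the transcript as a whole and for all cells of the lung, so it cannot show whether exon 2 was removed in the epithelium. Y-linked genes summed to 22.3 and 8.11 RPKM in DKO 1 and DKO 2 and to 0 in WT, so genotype and sex cannot be told apart. Leukocyte markers summed to 379 and 196 RPKM in DKO 1 and DKO 2, against 41.4 in WT, and 6 of the 9 with a row were above WT in both. Erythroid markers, mostly the embryonic globin Hbb-y, summed to 28700 and 103000 RPKM in DKO 1 and DKO 2, against 20200 in WT, and liver markers to 11.4 and 183 against 7.55, so DKO 2 stood apart for both. Depth, estimated from the worth of 1 read, was about 30700000 and 34200000 reads in DKO 1 and DKO 2 and 48700000 in WT. Exact zeros were common, with 68.0% of transcripts at 0 in every library, and a zero can be a failed estimate.

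Mapk12 had the highest level of the 3 p38 genes measured in WT, Mapk14 being listed at 0, and was far lower in both DKO libraries. Its level was 0.655 RPKM in DKO 1 and 0 in DKO 2, against 4.63 RPKM in WT (NM_013871, 12 exons, 1808 bases). Both DKO libraries thus lay below WT, and they differed from each other in whether the transcript was seen at all. The RPKM ratio of DKO 1 to WT was 0.142 (95% exact interval 0.0969 to 0.198), from about 36 reads in DKO 1 and 407 in WT. These intervals, here and below, reflect counting error alone and treat PCR copies as if they were separate molecules. No ratio is given for DKO 2, where the value was 0. Of 123 transcripts with at least 4 and under 5 RPKM in WT, 4 (3.25%) were at 0 in DKO 2 and 0 in DKO 1. In the other direction, 2 of 131 transcripts in that range in DKO 1 and 7 of 132 in DKO 2 were at 0 in WT. Mapk12 is among the 4 and was proposed for lying far below WT, so nothing is read from this count. On the log2(RPKM + 1) scale its differences were −1.77 in DKO 1 and −2.49 in DKO 2, with a mean of −2.13 (SE 0.82). Each SE, here and below, comes from the limma fit over the table, with 1 residual degree of freedom and a prior of 11.2. It therefore rests mostly on the prior and is not the spread between the DKO libraries.

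Mapk13, which encodes p38-delta, was lower in the same direction. Its level was 0.164 RPKM in DKO 1 and 0.0842 in DKO 2, against 1.72 in WT (NM_011950). The ratio to WT was 0.0958 in DKO 1 (0.0535 to 0.163) and 0.0491 in DKO 2 (0.0198 to 0.0930). Both DKO values lay below WT beyond counting error, and the interval of the ratio of DKO 2 to DKO 1, 0.512 (0.176 to 1.20), included equal levels. At the annotated length of 2937 bases the values stood for about 15, 8 and 245 reads in DKO 1, DKO 2 and WT but did not come out whole. With a length of 1379 bases, the shortest from 500 bases up at which the DKO values come out whole, they were 7, 4 and 115 reads, and the intervals widened to 0.0380 to 0.205 for DKO 1 and 0.0133 to 0.130 for DKO 2. With a mean of 0.655 RPKM over the 3 libraries, Mapk13 was below the 1 RPKM required for the fit over the table, and its log2 differences of −1.22 in DKO 1 and −1.33 in DKO 2 are understated by the added 1.

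Mapk11, the neighbour of Mapk12, was very low in every library and went the other way. It had 0.133 RPKM in DKO 1 and 0.455 in DKO 2, against 0.0168 in WT (NM_011161). These values stood for about 10, 38 and 2 reads in that order, so the ratios to WT of 7.94 in DKO 1 (1.69 to 74.5) and 27.0 in DKO 2 (6.99 to 231) have wide intervals. Neither interval reached 1, and DKO 2 was 3.41 times DKO 1 (1.67 to 7.67). The length the authors used is not known. At 965 bases, found in the same way, these values would be 4, 15 and 1 reads. The DKO 1 interval of 0.628 to 313 would then include 1. That length is shorter than the annotated coding sequence of 1095 bases, so it is an extreme case. Mapk14, the widely expressed p38-alpha, was listed at 0 for all 4 of its transcripts in every library. That was the usual outcome for genes with many transcripts here: 81.4% of the 601 genes with 4 or more transcripts in the table were at 0 throughout, against 44.5% of the 7861 genes with 1. Mapk14 is therefore not described further, and the sums given for p38 kinases are without it.

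**Figure D1:**
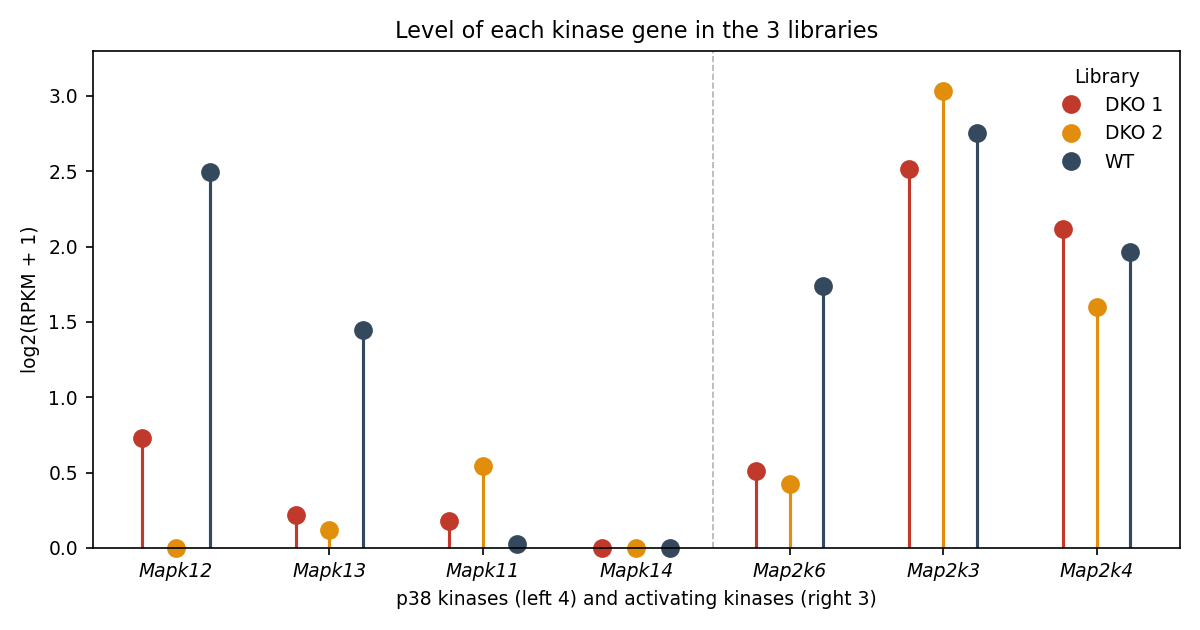
Level of the 7 kinase genes on the log2(RPKM + 1) scale, 1 point per library, with p38 kinases left of the dashed line and activating kinases right of it. Mapk12, Mapk13 and Map2k6 stand higher in WT than in either DKO library, Map2k3 and Map2k4 have WT between the DKO libraries, and Mapk14 is at 0 throughout (drawn for 1 of its 4 transcripts).

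Among the activators, Map2k6 alone was lower in both DKO libraries. It had 0.426 RPKM in DKO 1 and 0.340 in DKO 2, against 2.34 in WT (NM_011943, 2068 bases). The DKO libraries lay close together, with a ratio of DKO 2 to DKO 1 of 0.797 (0.440 to 1.44), and well below WT. Relative to WT the ratio was 0.182 in DKO 1 (0.118 to 0.272) and 0.145 in DKO 2 (0.0913 to 0.222), from about 27 and 24 reads against 235 in WT. At the shortest length giving whole DKO reads, 685 bases, these would be 9 and 8 reads against 78. The intervals would then be 0.0807 to 0.366 in DKO 1 and 0.0609 to 0.302 in DKO 2. Its log2(RPKM + 1) differences were −1.23 and −1.32 in DKO 1 and DKO 2 (mean −1.27, SE 0.85).

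Map2k3, the other dedicated p38 activator, had the highest level of the 6 genes with values above 0 in each library. It had 4.71 RPKM in DKO 1 and 7.18 in DKO 2, against 5.75 in WT (NM_008928). WT lay between the DKO libraries, with ratios of 0.820 in DKO 1 (0.714 to 0.941) and 1.25 in DKO 2 (1.11 to 1.40). Map2k4 had 3.34 RPKM in DKO 1 and 2.03 in DKO 2, against 2.91 in WT (NM_009157). Here too WT was in between, with ratios of 1.15 (1.0 to 1.31) in DKO 1 and 0.698 (0.599 to 0.812) in DKO 2. At the shortest lengths that give whole DKO reads, the intervals of both genes would include 1 in both DKO libraries, whereas those of Mapk12, Mapk13 and Map2k6 would not. Except for Mapk13, these lengths are shorter than the annotated coding sequence, so they are extreme cases. For Map2k3 the length was 505 bases, against 1044 coding bases. The mean log2 differences of 0.02 for Map2k3 (SE 0.66) and −0.11 for Map2k4 (SE 0.67) were smaller than the spread between the DKO libraries. The sign of the Map2k3 mean turned to −0.18 with values rescaled to TPM and −0.06 with quantile normalization.

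**Figure D2:**
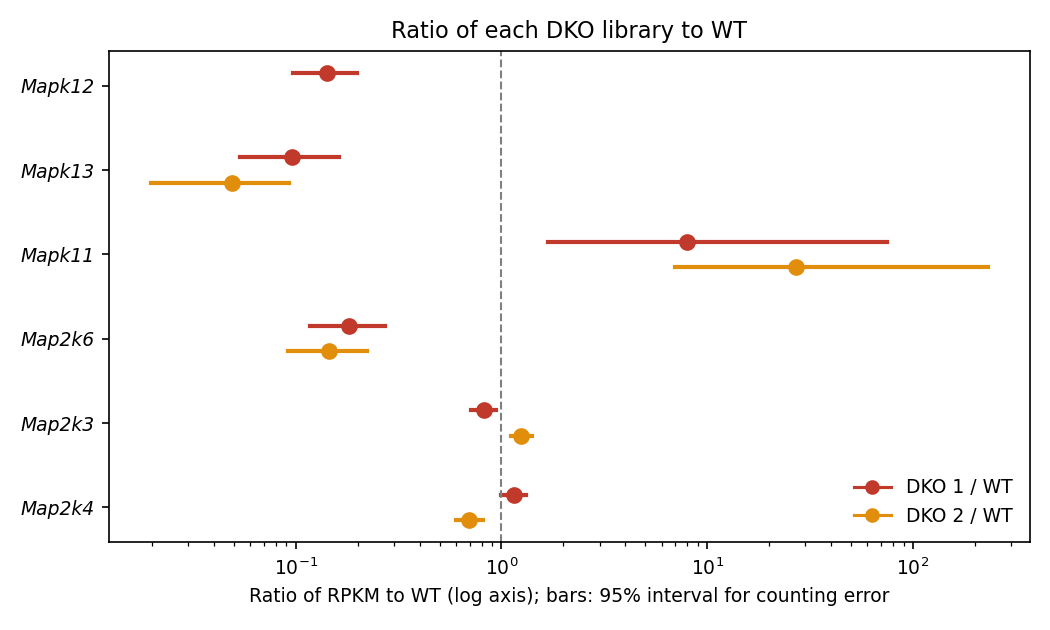
RPKM of each DKO library divided by that of WT on a log axis, with bars for the 95% interval of counting error, and no DKO 2 point for Mapk12, which was listed at 0. Mapk12, Mapk13 and Map2k6 lie left of 1, Mapk11 lies right of it, and Map2k3 and Map2k4 lie on both sides.

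Of the 6 member genes above 0 in WT, 3 (Mapk12, Mapk13 and Map2k6) had less than 25% of the WT RPKM in both DKO libraries. Over the whole table this held for 10% of the 4254 transcripts above 0 in WT. Mapk11 was more than 4 times WT in both, which held for 4.39% of the 3304 transcripts above 0 in every library. Of the 4 member transcripts that reached a mean of 1 RPKM, Mapk12 and Map2k6 were at least 2-fold below WT in both on the log2(RPKM + 1) scale, as were 33 of 2066 tested transcripts, or 1.60%, while 80 (3.87%) were at least 2-fold above and no member was. With values rescaled to TPM these numbers were 57 below and 63 above. Ordered by the smaller of their falls in DKO 1 and DKO 2, Mapk12 stood at place 3 and Map2k6 at place 11 among those 2066. These places are what brought the set forward, so nothing is read from the counts.

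The order of the measured genes by RPKM differed between the libraries. In DKO 1 it ran Map2k3, Map2k4, Mapk12, Map2k6, Mapk13 and Mapk11 from high to low, and in DKO 2 Map2k3, Map2k4, Mapk11, Map2k6 and Mapk13, with Mapk12 at 0. In WT it ran Map2k3, Mapk12, Map2k4, Map2k6, Mapk13 and Mapk11. With reads at the annotated lengths, 3 of the 14 pairs of neighbours in this order were not separated beyond counting error: Mapk12 over Map2k6 in DKO 1 (ratio 1.54, 0.900 to 2.61), Mapk13 over Mapk11 in DKO 1 (1.23, 0.528 to 3.13) and Mapk11 over Map2k6 in DKO 2 (1.34, 0.778 to 2.32). In WT the closest neighbours were Map2k3 and Mapk12 (1.24, 1.09 to 1.41). At the shortest lengths that give whole DKO reads, 7 of the 14 pairs were not separated, Map2k3 over Mapk12 in WT (0.964 to 1.59) and Map2k3 over Map2k4 in DKO 1 (0.978 to 2.05) among them. Except for Mapk13, those lengths are shorter than the coding sequences, so this too is an extreme case. Among detected transcripts Mapk12 stood above 48.5% in DKO 1, against 75.6% in WT. Map2k3 kept a like place, above 77.7% and 76.8% of detected transcripts in DKO 1 and DKO 2 and 78.3% in WT.

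Ratios within a library do not depend on how libraries are scaled to each other, and they too differed. Map2k6 stood at 0.0905 of Map2k3 in DKO 1 and 0.0473 in DKO 2, against 0.407 in WT. Relative to Map2k4 it was 0.128 and 0.167 in DKO 1 and DKO 2, against 0.803 in WT. The members were thus not lower by a common factor. Summed over Mapk11, Mapk12 and Mapk13, the p38 level was 0.953 RPKM in DKO 1 and 0.539 in DKO 2, against 6.36 in WT. The activators summed to 8.47 and 9.55 RPKM in DKO 1 and DKO 2, against 11.0 in WT. Mapk12 supplied 68.8% of the p38 sum in DKO 1 and 0% in DKO 2, against 72.8% in WT. Mapk11 supplied 14.0% and 84.4% in DKO 1 and DKO 2, against 0.264% in WT. Of the activator sum, Map2k6 supplied 5.03% and 3.56% in DKO 1 and DKO 2, against 21.3% in WT.

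**Figure D3:**
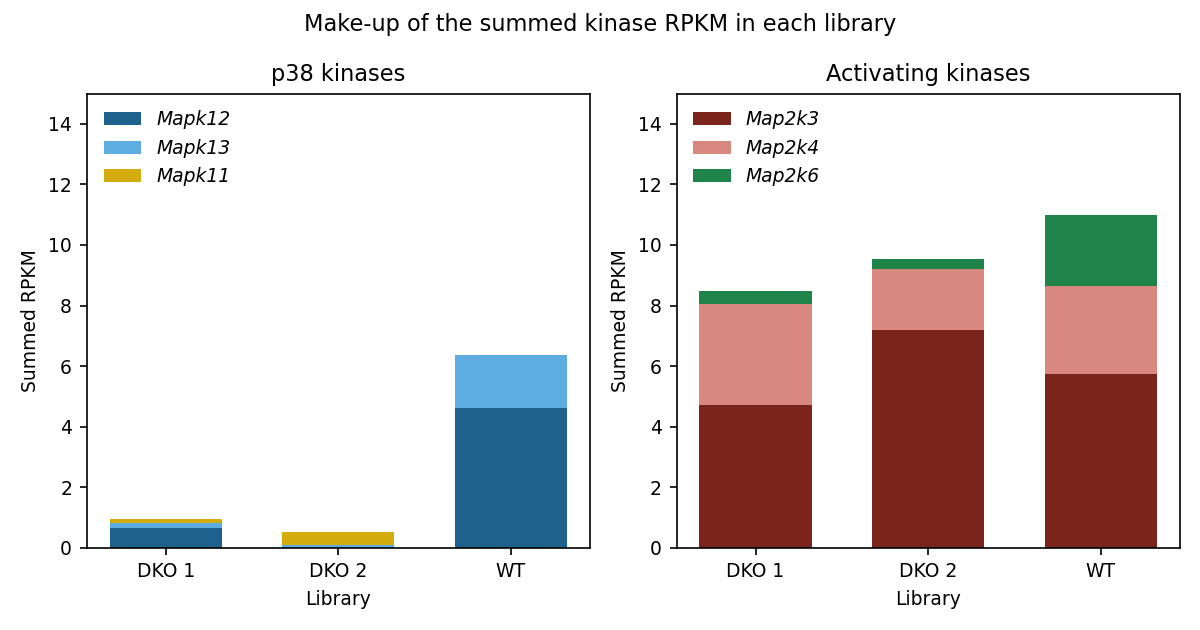
Summed RPKM of the measured p38 kinases (left panel) and of the activating kinases (right panel) in each library, split by gene. The p38 bars reach 0.953 and 0.539 in DKO 1 and DKO 2 and 6.36 in WT, whereas the activator bars reach 8.47, 9.55 and 11.0 in the same order, with the Map2k6 part small in both DKO bars.

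In bulk tissue, fewer cells of a type and less RNA per cell cannot be told apart, so marker lists are set beside these values. Of 13 lung epithelium markers with a row, 7 were below WT in both DKO libraries and 1, Krt19, was above. The list summed to 33.3 RPKM in DKO 1 and 38.3 in DKO 2, against 418 in WT, and without Sftpc, the surfactant gene that makes up most of the WT sum, to 25.8 and 38.3 against 48.4. Nkx2-1 was at 0 in every library. Without Sftpc the epithelial sum, mostly Epcam, Krt18 and Krt19, was thus lower in both DKO libraries, by less than 2-fold. Single markers differed more. Irx2 had 1.07 and 0.297 RPKM in DKO 1 and DKO 2, against 3.72 in WT, and Foxa1 0.798 and 0.688 against 2.64. Krt19, the marker above WT, had 6.17 and 9.11 RPKM in DKO 1 and DKO 2, against 3.08 in WT. Of 9 skeletal muscle markers with a row, Acta1, Myod1, Pax7 and Tnnt3 were at 0, 1 was below WT in both DKO libraries and 2 were above, and the list summed to 14.5 and 12.7 RPKM in DKO 1 and DKO 2 against 19.7 in WT. Most of that sum was Tnni2, the marker below WT, with 9.87 and 7.93 RPKM in DKO 1 and DKO 2, against 17.3 in WT. Those above WT were Des, with 4.52 and 3.09 RPKM in DKO 1 and DKO 2 against 2.26 in WT, and Myh3, with 0.0326 and 0.771 against 0.00686. Heart muscle markers summed to 19.4 and 111 RPKM in DKO 1 and DKO 2, against 29.2 in WT. The part of these cell types in the levels of Mapk12, Mapk13 and Map2k6 was not tested.

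The promoters of the 3 genes that were lower in both DKO libraries, and of Mapk11 next to Mapk12, are shown because their levels differed between the genotypes together or in opposite directions. Each is a RefSeq window on GRCm38.p6 from 250 bases before to 50 after a listed start of the gene, 5′ to 3′ on the gene's strand. Map2k6 had 3 such windows, and only the 1 printed here is described. Capitals mark GC boxes (GGGCGG) and AP-1 motifs (TGANTCA) on either strand.
Mapk12, chr15:89140654-89140953, minus strand: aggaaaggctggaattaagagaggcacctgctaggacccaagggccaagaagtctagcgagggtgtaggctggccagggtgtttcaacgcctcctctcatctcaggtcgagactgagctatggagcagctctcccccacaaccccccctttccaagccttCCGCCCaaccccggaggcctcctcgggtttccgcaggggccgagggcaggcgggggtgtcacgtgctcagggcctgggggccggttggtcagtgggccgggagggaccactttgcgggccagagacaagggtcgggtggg
Mapk13, chr17:28769067-28769366, plus strand: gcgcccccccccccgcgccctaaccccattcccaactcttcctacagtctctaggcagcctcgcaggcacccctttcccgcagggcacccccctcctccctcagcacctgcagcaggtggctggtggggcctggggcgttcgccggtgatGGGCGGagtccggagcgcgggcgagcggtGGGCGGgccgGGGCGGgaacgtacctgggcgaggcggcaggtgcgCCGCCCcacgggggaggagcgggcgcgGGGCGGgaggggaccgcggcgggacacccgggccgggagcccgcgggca
Map2k6, chr11:110398852-110399151, plus strand: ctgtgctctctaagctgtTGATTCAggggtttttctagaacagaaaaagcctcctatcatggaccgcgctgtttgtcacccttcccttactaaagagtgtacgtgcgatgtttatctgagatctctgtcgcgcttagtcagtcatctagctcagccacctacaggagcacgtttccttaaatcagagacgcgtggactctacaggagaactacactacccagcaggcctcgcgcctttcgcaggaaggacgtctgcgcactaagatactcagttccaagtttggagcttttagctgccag
Mapk11, chr15:89149557-89149856, minus strand: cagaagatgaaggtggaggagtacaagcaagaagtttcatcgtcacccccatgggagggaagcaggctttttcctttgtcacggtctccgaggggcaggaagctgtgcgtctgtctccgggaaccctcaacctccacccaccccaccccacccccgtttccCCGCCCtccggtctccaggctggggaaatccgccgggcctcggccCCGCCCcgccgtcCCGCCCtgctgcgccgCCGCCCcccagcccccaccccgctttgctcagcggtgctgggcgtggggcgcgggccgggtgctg
These windows differed in make-up. The Mapk13 window held 5 GC boxes, 34 CpG and 78.0% G or C, and the Mapk11 window 4 GC boxes, 24 CpG and 69.7%. The Mapk12 window held 1 GC box and 14 CpG, and the Map2k6 window 0 GC boxes, 14 CpG and 50% G or C. The start used for the Mapk12 window lies 82 bases upstream of that of the measured transcript, NM_013871. That transcript begins at 89140621, outside the window. Over 32817 windows the median was 7 CpG and 52.7% G or C, and 35.6% held a GC box. The Map2k6 window held 1 AP-1 motif, as did 7.81% of all windows with at least 1, and none of the other 3 did. Searches on both strands found 0 copies of the CAAT box motif (CCAAT), present in 37.4% of all windows, in these 4 windows. The TATA box (TATAAA, 13.6% of windows) and the cyclic AMP response element (TGACGTCA, 1.79% of windows) also had 0 copies in them. The E-box CANNTG, present in 72.3% of windows, occurred 2 times in that of Mapk12 and 3 times in that of Mapk13, and in neither of the others. No motif overlapped another. A match of letters is a description and not a binding site. In the windows printed here, the 3 lower genes shared no searched motif among all of them.

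Lin28 proteins block the maturation of let-7 microRNAs and bind mRNAs at GGAGA-like letters, so both kinds of letters were counted in the members. The let-7 seed, bases 2 to 8 in capitals, is shared by 10 of the 11 let-7 family sequences in the RefSeq table (GRCm38.p6).
mmu-let-7a-5p: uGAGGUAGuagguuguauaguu
mmu-let-7g-5p: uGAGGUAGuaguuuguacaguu
A full match to that seed (CTACCTC) occurred in the 3′ UTR of 1 of the 7 genes, Mapk11, and in 6.89% of 13679 transcripts of the table.
Mapk11, 3′ UTR match in capitals: tgtccacgttCTACCTCcaccaaccct
Mapk12, Mapk13 and Map2k6, the genes that were lower in both DKO libraries, had none in 3′ UTRs of 555, 1723 and 775 bases. GGAGA occurred 2.21 times per kilobase in Mapk12, 2.04 in Mapk13 and 0.967 in Map2k6, against a median of 2.05 over those transcripts. Map2k3 and Map2k4 had 2.27 and 2.44 per kilobase.

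Other genes of the p38 pathway lay on both sides of WT, and none passed the test. In all, 6 role lists with 89 genes were examined, and they were chosen with earlier results of these data known. They had 20 tested genes, of which 8 were above WT in both DKO libraries, 4 below and 8 on either side. Over all tested transcripts 32.1% were above WT in both and 31.0% below. None of the 20 passed limma with Benjamini-Hochberg adjustment over the table (adjusted p = 0.999 for each), and 1, Hspb1, had an unadjusted p under 0.05. In the whole table limma called 2 of 2066 transcripts, or 0.0968%, and 66 had an unadjusted p under 0.05. The 1 residual degree of freedom came from the DKO pair, and WT was taken to vary as much as they do. The median log2 difference of the 20 was 0.36, and that of all tested transcripts −0.01.

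**Figure D4:**
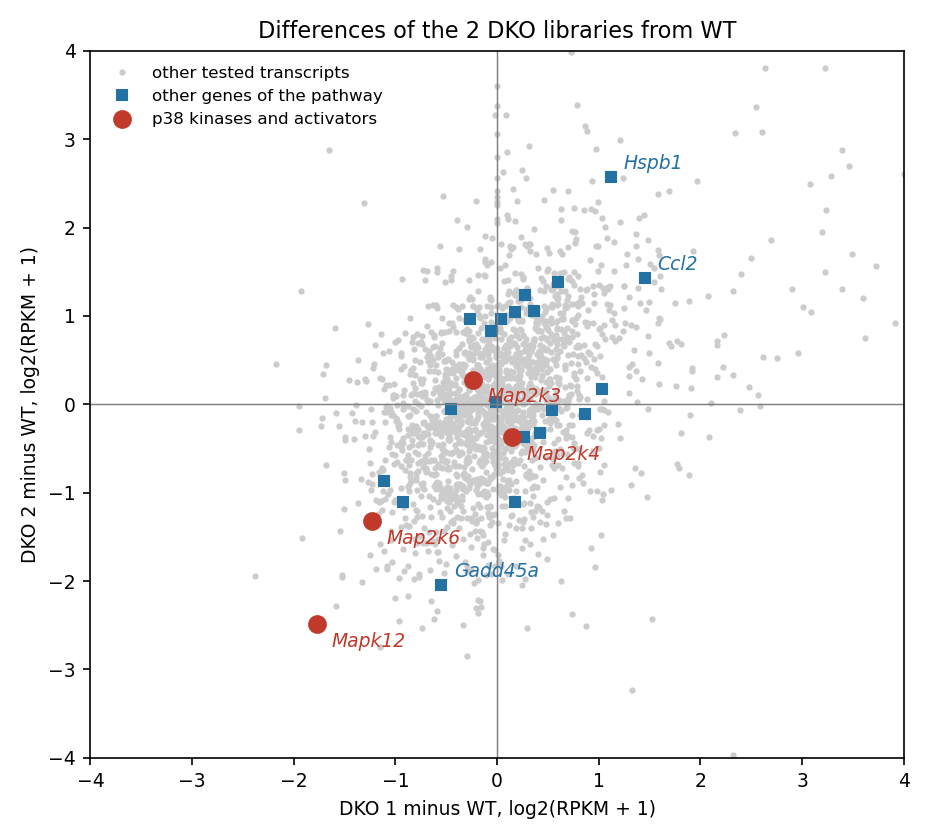
Difference of DKO 1 from WT (x axis) and of DKO 2 from WT (y axis) on the log2(RPKM + 1) scale, with tested members as circles, other pathway genes as squares and the remaining tested transcripts as grey points (10 lie beyond the axis limit of 4). Map2k6 and Mapk12 lie in the lower left, whereas Map2k3, Map2k4 and most squares lie nearer the centre, apart from Hspb1, Ccl2 and Gadd45a.

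Upstream of the activators, 5 genes of the MAP kinase kinase kinase tier and its adaptors were tested, with a median log2 difference of 0.01. Gadd45a, a stress-induced activator of that tier, had 2.58 RPKM in DKO 1 and 0.263 in DKO 2, against 4.25 in WT (log2 difference −1.30, SE 0.80). Its relative Gadd45g had 2.23 and 3.28 RPKM in DKO 1 and DKO 2, against 3.42 in WT. Both were below WT in both libraries, Gadd45g only slightly so in DKO 2. Gadd45b, under the level for testing, was above WT, with 1.39 and 0.416 RPKM in DKO 1 and DKO 2, against 0.0973 in WT. Map3k8, a kinase of inflammatory signalling, had 8.78 and 9.04 RPKM in DKO 1 and DKO 2, against 8.85 in WT, and was the steadiest of the tier. The other 2 tested genes, Map3k1 and Map3k20, lay on either side of WT.

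Of the other MAP kinase kinases and MAP kinases, 4 genes were tested, with 3 above WT in both DKO libraries and 1 below (median log2 difference 0.55). Nlk, a kinase distantly related to the MAP kinases, had 0.877 RPKM in DKO 1 and 0.670 in DKO 2, against 2.57 in WT (log2 difference −1.01, SE 0.78). Map2k1 (MEK1), which activates ERK kinases, had 3.92 and 7.87 RPKM in DKO 1 and DKO 2, against 3.33 in WT (log2 difference 0.61, SE 0.67). Map2k5, the activator of ERK5, had 10.9 and 5.57 RPKM in DKO 1 and DKO 2, against 4.84 in WT. Mapk3 (ERK1) had 11.5 and 22.6 RPKM in DKO 1 and DKO 2, against 11.2 in WT, so only DKO 2 stood well above WT.

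Downstream, both tested substrate kinases were above WT in both DKO libraries without passing the test. Mapkapk2 (MK2), the best known p38 substrate kinase, had 10.4 RPKM in DKO 1 and 17.4 in DKO 2, against 7.86 in WT (log2 difference 0.71, SE 0.71). Mapkapk5 had 3.07 and 6.98 RPKM in DKO 1 and DKO 2, against 2.38 in WT (log2 difference 0.75, SE 0.68). Hspb1, the small heat shock protein that MK2 phosphorylates, had 2.82 and 9.39 RPKM in DKO 1 and DKO 2, against 0.751 in WT (log2 difference 1.85, SE 0.74, unadjusted p = 0.0276, limma adjusted p = 0.999). Over the alternatives tried its limma adjusted p ran from 0.425 to 0.999. The transcription factor Atf1 had 3.44 and 4.24 RPKM in DKO 1 and DKO 2, against 8.56 in WT (log2 difference −0.99, SE 0.64), and Elk1 and Zfp36l1 lay on either side of WT.

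Among phosphatases and scaffolds, 4 genes were tested and 3 lay on either side of WT. Ppm1a, a phosphatase that acts on stress-activated kinases, had 4.87 RPKM in DKO 1 and 9.05 in DKO 2, against 2.86 in WT (log2 difference 0.99, SE 0.67). Dusp1, a dual-specificity phosphatase that inactivates p38, had 4.23 RPKM in DKO 1 and 1.16 in DKO 2, against 3.62 in WT. Of the inflammatory mRNAs under p38 control, 1 was tested. Ccl2, a monocyte chemokine, had 66.0 and 64.9 RPKM in DKO 1 and DKO 2, against 23.4 in WT (log2 difference 1.44, SE 0.78), beside the higher leukocyte markers given above, whose part was not tested. Zfp36, whose protein destabilizes inflammatory mRNAs and is a target of MK2, was under the level for testing, with 1.18 and 1.13 RPKM in DKO 1 and DKO 2, against 0.105 in WT. Of the other inflammatory mRNAs under that level, Cxcl1 had 0 RPKM in both DKO libraries, against 0.563 in WT, and Cxcl2 had 0.120 and 1.03 RPKM in DKO 1 and DKO 2, against 0 in WT.

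**Figure D5:**
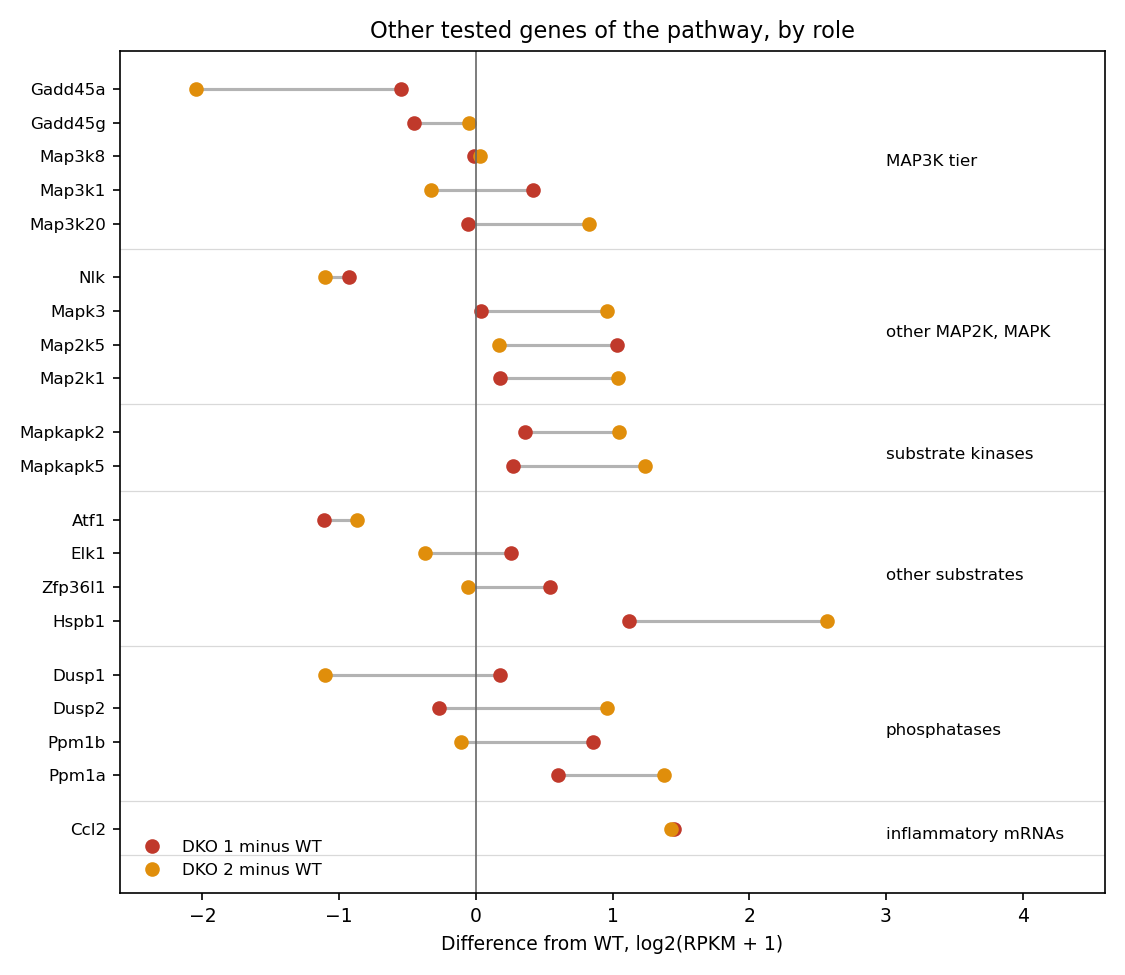
Difference from WT on the log2(RPKM + 1) scale of the 20 other pathway genes tested, grouped by role, with 1 point for each DKO library joined by a line. Of the genes drawn, 8 have both points right of 0, 4 have both left of it and 8 straddle it.

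The genes whose pattern lay nearest to Mapk12 and Map2k6 were sought by the distance between their pairs of log2(RPKM + 1) differences, over only 3 libraries. Members and predicted genes were left out of the search. Nearest to Mapk12 was Akr1c19 (distance 0.28), with 4.93 RPKM in DKO 1 and 2.66 in DKO 2, against 16.8 in WT, and then Pjvk (0.59) and Nudt10 (0.61). Pjvk was, like Mapk12, listed at 0 in DKO 2, with 0.348 RPKM in DKO 1 and 2.87 in WT. Nearest to Map2k6 were Gusb (distance 0.10), Psmc2 (0.15) and S1pr2 (0.22). Psmc2, a proteasome subunit gene, had 31.3 and 29.9 RPKM in DKO 1 and DKO 2, against 69.9 in WT. Gusb, a lysosomal enzyme gene, had 2.57 and 2.42 RPKM in DKO 1 and DKO 2, against 7.06 in WT. The added 1 understates changes of low genes, so nearness on this scale is not an equal fall in RPKM. Map2k6 was at 0.182 of WT in DKO 1 and 0.145 in DKO 2, a larger fall than for Gusb, Psmc2 or S1pr2.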

How the data were processed

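RNA of whole lung was measured by sequencing, with Trizol for extraction and a SMARTer Ultra Low Input kit for the libraries, per the labels' protocols. The authors deposited RPKM values for 16383 RefSeq transcripts, 1 column per library. Per the submitters' processing notes, cutadapt, TopHat2, HTSeq and edgeR were used with build mm10, while versions, annotation, transcript lengths, totals and use of strand are not stated in the labels.

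Transcripts were named from RefSeq (GRCm38.p6, 16151) and GENCODE M21 (77), leaving 155 unnamed. The analysis used log2(RPKM + 1), which understates changes of low genes, and the 2066 transcripts averaging 1 RPKM or more. Limma 3.58.1 in R 4.3.3 (trend, two-sided, Benjamini-Hochberg) compared 2 DKO libraries with 1 WT library, with 1 residual degree of freedom and a prior of 11.2. The procedure was also run on simulated data. The outcome is not given here, and nothing about the fit to these libraries is read from it. Read numbers are approximate: RPKM times GENCODE length was divided by the worth of 1 read, and of the values up to 100 reads 45.3%, 44.2% and 45.8% in DKO 1, DKO 2 and WT came within 0.05 of a whole read. Ratio intervals are exact binomial (95%).

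The members and lists were chosen with earlier results of these data known. Named genes are the members, up to 4 per role list with the largest difference shared by both DKO libraries, and the 3 nearest in pattern to Mapk12 and Map2k6. Map3k8, Map3k1, Map3k20, Elk1, Zfp36l1, Zfp36, Dusp1, Gadd45b, Cxcl1, Cxcl2 and the named markers were added once their values were known. From the role lists, 1 gene is not reported here and is left out of their counts.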

Additional observations from a re-analysis of the deposited data

How the results depend on the processing

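Alternatives were pseudocounts of 0.1 and 5 RPKM, no filter and a filter at 5 RPKM, quantile normalization, rescaling to TPM, median scaling, moderation without trend or with robust estimation, a 1.5-fold rule and leaving out each DKO library. No paired analysis was possible because the WT group has 1 library. A pseudocount or leaving out a library could not turn a sign that both DKO libraries shared. Mapk12, Mapk13 and Map2k6 were below WT, and Mapk11 above, under each alternative that could be run. Their sizes depended on the pseudocount: with 0.1 RPKM the log2 differences were −4.10 (Mapk12), −3.04 (Mapk13), −2.34 (Map2k6) and 1.62 (Mapk11), and with 5 RPKM −0.86, −0.39, −0.45 and 0.08 in that order. Rescaling to TPM, which moved the median of all tested transcripts to −0.19, gave −1.40 for Map2k6, −1.38 for Mapk13 and −0.18 for Map2k3, and quantile normalization −1.39 for Map2k6 and −0.06 for Map2k3. Mapk11 and Mapk13, under the filter, have no quantile value.

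Leaving out either DKO library gave log2 differences of −2.49 to −1.77 for Mapk12, −1.33 to −1.22 for Mapk13, −1.32 to −1.23 for Map2k6, 0.16 to 0.52 for Mapk11, −0.24 to 0.28 for Map2k3 and −0.37 to 0.15 for Map2k4, with no test, since no residual degrees of freedom remain. Map2k3 was −0.24 and Map2k4 0.15 without DKO 2. List medians ran from −0.06 to −0.05 for the MAP kinase kinase kinase tier, 0.11 to 0.56 for other MAP kinase kinases and MAP kinases, 0.31 to 1.15 for substrate kinases, −0.22 to 0.40 for other substrates, 0.39 to 0.42 for phosphatases and scaffolds and 1.43 to 1.45 for inflammatory mRNAs (Ccl2 alone).

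The median of the upstream tier was −0.19 with TPM, −0.06 with quantile normalization, 0.02 with median scaling and 0.04 with no filter. That of other substrates was −0.06 with TPM and −0.37 at 5 RPKM. That of phosphatases was 0.47 and 0.17 with pseudocounts of 0.1 and 5, 0.29 with quantile normalization, 0.22 with TPM and 0.99 at 5 RPKM. That of inflammatory mRNAs was 1.48 and 1.31 with those pseudocounts, 1.36 with quantile normalization, 1.22 with TPM and 0.59 with no filter.

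The number of transcripts called by limma, 2 in the main analysis, was 13 and 1 with pseudocounts of 0.1 and 5, 10 at 5 RPKM, 17 with median scaling and 0 with no filter, quantile normalization or TPM, where 260, 45 and 36 had an unadjusted p under 0.05. None of the 20 pathway genes passed under any of these. Transcripts at least 2-fold above and below WT in both DKO libraries numbered 80 and 33, against 154 and 62 with a pseudocount of 0.1, 33 and 6 with 5, 51 and 11 at 5 RPKM, 81 and 51 with no filter, 63 and 57 with TPM, and 213 and 144 with a 1.5-fold rule. With 1 DKO library left out they were 166 to 311 above and 114 to 244 below. The causes were not tested. Depth limits Mapk11, at about 2 reads in WT, most.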
